A study of Mus musculus with 8 samples.

Results

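The S100 calcium-binding proteins are a family of small proteins with a pair of EF-hand motifs, which bind calcium in most members. They act inside the cell by binding partner proteins, and several are released from injured or activated cells, where they signal through pattern-recognition receptors such as TLR4 and RAGE. In the brain, S100B is best known as an astrocyte protein, and S100A8 and S100A9 are abundant in neutrophils and monocytes and can be induced in endothelium by inflammation.

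The 10 S100 genes described here (S100a1, S100a4, S100a6, S100a8, S100a9, S100a10, S100a11, S100a13, S100a16 and S100b) were chosen by name, with earlier results of these data known. Each was represented by the probe sets whose only annotated symbol is that gene. This gave 10 probe sets, 1 for each gene, of the 25341 with at least 1 gene symbol and of 41345 on the array. RNA came from brain endothelial cells (BECs) of 4 SAH mice and 4 Sham mice, all 12-week-old male FVB/NJ animals, with 1 Affymetrix Mouse Gene 2.0 ST array per animal. SAH mice had a burr hole and an injection of 80 μL of littermate blood in front of the optic chiasm. Sham mice had the burr hole and the needle but no blood. In both groups the left hemisphere was taken at 24 h without meninges, and CD45-CD31+ cells were isolated with magnetic beads, so cells that escape this selection can remain in the preparation. The deposited values are log2 intensities after robust multi-array average (RMA) normalization, with array medians between 4.23 and 4.30. Probe sets bind with different strength, so levels are compared between arrays and not between genes.

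In these preparations the endothelial markers Pecam1 (10.66 ± 0.09 after SAH and 10.30 ± 0.06 in Sham, SD, n = 4 each) and Cdh5 (11.17 ± 0.03 after SAH and 10.95 ± 0.13 in Sham, SD, n = 4 each) lay far above the array medians. Over 14 endothelial markers the summed linear intensity ranged from 19448 to 20779 after SAH and from 19864 to 20654 in Sham. The angiopoietin receptor gene Tek (9.10 ± 0.30 after SAH and 10.08 ± 0.20 in Sham) and the VEGF receptor gene Kdr (8.72 ± 0.21 after SAH and 9.49 ± 0.25 in Sham, SD, n = 4 each) fell after SAH. Arrays correlated at 0.984 to 0.989 within a group and at 0.974 to 0.985 between groups. Per the study's methods, cells were isolated from a pair of animals each day, usually an SAH animal and a Sham animal, but the labels do not say which arrays share a day, so the day could not be fitted as such.

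Of the 10 S100 genes, 4 rose after SAH and none fell (limma, Benjamini-Hochberg adjusted p under 0.05). They were S100a8 (4.20-fold as measured) and S100a9 (2.31-fold), which together form calprotectin, S100a6 (2.01-fold), which encodes calcyclin, and S100a11 (1.46-fold), which encodes a binding partner of annexin A1. The S100a8 fold is uncertain because its Sham mean was under the median of every array, and with 16 added to each linear intensity its log2 change was 1.32 and was not called (limma, adjusted p = 0.115). S100a9 (limma, adjusted p = 0.107) and S100a6 (0.0793) also lost their calls in that setting. Of all 25341 probe sets tested, 3.18% were called, 1.90% higher and 1.28% lower. By the methods' t-test, 0 of the 10 genes (5 at p under 0.05 before adjustment) and 0.339% of all probe sets passed. The study reports a larger share for the test that its methods name, which the run here did not reproduce. With the number in the sample descriptions as a replicate block, which may or may not mark the day, only S100a6 kept its call (limma, adjusted p = 0.0294), while S100a8 (0.0679), S100a9 (0.0792) and S100a11 (0.162) lost theirs. SAH replicate 2 and Sham replicate 3 share their number with no array of the other group, so they add nothing to the change estimated in that fit. The SAH arrays all lay above the Sham arrays for 4 of the 10 genes and below them for 0, against 4.51% and 4.47% of all probe sets. All 10 S100 genes had a log2 change above 0, against 46.4% of all probe sets, and their median log2 change was 0.30, against -0.02 over all probe sets. The 10 genes were chosen with earlier results of these data known, so these shares may partly reflect that choice. Of 8 further genes named for S100, 4 had a log2 change above 0 and 4 below it. A two-sided exact permutation test of the 8 arrays gave p = 0.0286, the smallest this design allows, for S100a8, S100a9, S100a11 and S100a13, and p = 0.0571 for S100a6. The 6 genes not called had log2 changes between 0.12 and 0.38 that did not pass the test. These are bulk preparations, in which more cells of a type and more RNA per cell cannot be told apart.

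**Figure D1:**
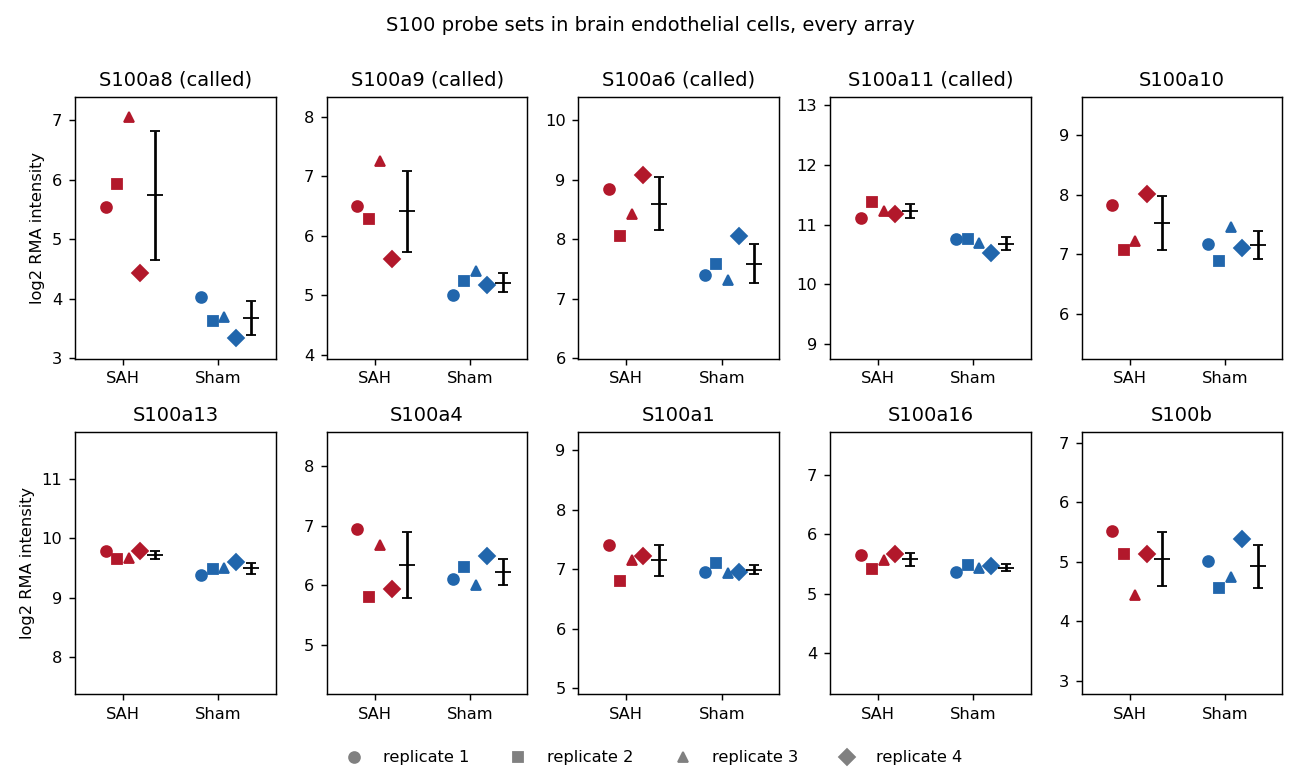
Log2 RMA intensity of each S100 probe set (vertical axis, the same span of log2 units in every panel) on the 4 SAH arrays and the 4 Sham arrays, with the symbol giving the replicate and the bar the mean ± SD of the group. S100a8 reached 4.43 to 7.06 on SAH arrays and 3.33 to 4.02 on Sham arrays, while S100a11 formed narrow, separate groups.

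**Figure D2:**
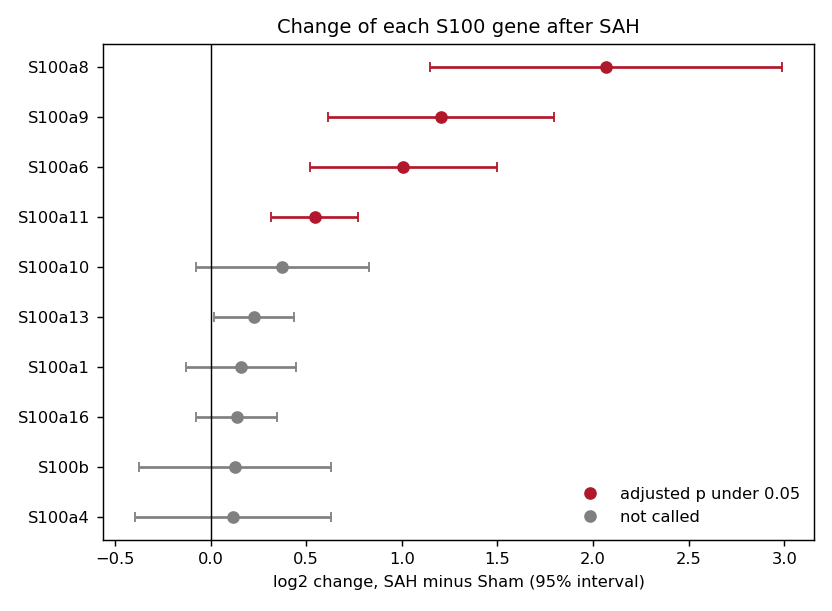
Log2 change of each S100 gene (horizontal axis, SAH mean minus Sham mean) with its 95% interval from limma, ordered by size. The intervals of the 4 called genes lay above 0, from S100a8 at 2.07 to S100a11 at 0.54.

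The called genes all lie on chromosome 3, with S100a6, S100a8 and S100a9 in a run of S100 genes and S100a11 outside it. In the RefSeq annotation, 12 protein-coding genes follow one another from S100a1 to S100a9, all of them S100 genes, and 7 of the 10 genes studied are among them. S100a11 and S100a10 are neighbours farther along the chromosome with 0 protein-coding genes between them, and S100b lies on chromosome 10. The promoter windows of the 4 called genes are shown because these genes moved in the same direction. Each window runs from 250 bases before to 50 bases after the annotated start, in RefSeq sequence of GRCm38.p6, 5′ to 3′ on the strand of the gene, and capitals mark matches to the motifs searched. The reference is not the FVB/NJ strain of these mice.
S100a8, chr3:90668821-90669120, plus strand: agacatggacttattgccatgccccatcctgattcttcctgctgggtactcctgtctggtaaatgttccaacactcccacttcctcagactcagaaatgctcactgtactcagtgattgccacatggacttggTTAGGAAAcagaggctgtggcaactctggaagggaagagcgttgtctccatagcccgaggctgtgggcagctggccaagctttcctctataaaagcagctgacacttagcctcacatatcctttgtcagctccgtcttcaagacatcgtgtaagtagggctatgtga
S100a9, chr3:90695672-90695971, minus strand: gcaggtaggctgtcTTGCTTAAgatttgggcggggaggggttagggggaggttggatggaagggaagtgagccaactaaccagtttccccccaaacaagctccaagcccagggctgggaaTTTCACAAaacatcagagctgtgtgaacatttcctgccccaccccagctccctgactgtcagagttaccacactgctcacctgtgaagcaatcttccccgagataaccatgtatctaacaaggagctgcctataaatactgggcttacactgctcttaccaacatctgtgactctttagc
S100a6, chr3:90612644-90612943, plus strand: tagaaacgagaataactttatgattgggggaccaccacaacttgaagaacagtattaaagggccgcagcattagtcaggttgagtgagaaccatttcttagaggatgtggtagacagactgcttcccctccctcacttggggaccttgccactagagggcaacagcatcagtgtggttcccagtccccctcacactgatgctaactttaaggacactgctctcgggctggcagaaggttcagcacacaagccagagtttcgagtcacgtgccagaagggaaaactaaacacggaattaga
S100a11, chr3:93520246-93520545, plus strand: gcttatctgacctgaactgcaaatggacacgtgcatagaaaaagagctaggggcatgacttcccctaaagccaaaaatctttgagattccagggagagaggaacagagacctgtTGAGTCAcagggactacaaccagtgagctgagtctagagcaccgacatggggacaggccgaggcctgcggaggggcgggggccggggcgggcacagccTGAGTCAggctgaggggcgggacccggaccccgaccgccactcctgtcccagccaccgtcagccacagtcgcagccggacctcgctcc

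The motifs were a C/EBP pattern (TTNCNNAA), an AP-1 pattern (TGANTCA), a STAT pattern (TTCNNNGAA) and an NF-kappaB pattern (GGGNNTTCC), searched on both strands. S100a8 held 1 C/EBP match, 117 bases before the start, and S100a9 held 2, at 236 and 130 bases before the start, a pattern present in 40.7% of the 32851 promoter windows of the table. S100a11 held 2 AP-1 matches, at 136 and 38 bases before the start, and AP-1 matches stood in 7.81% of all windows. None of these 4 windows matched the STAT pattern (8.30% of all windows) or the NF-kappaB pattern (5.82%), and that of S100a6 matched none of the 4 patterns. A promoter entry was found for 9 of the 10 genes. Among those that were not called, only S100a16 held a match, 1 of AP-1 in the second of its windows.

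S100a8, 1 of the chains of calprotectin, had log2 intensities of 5.55, 5.92, 7.06 and 4.43 in SAH replicates 1 to 4 and of 4.02, 3.63, 3.70 and 3.33 in Sham replicates 1 to 4. The groups did not overlap, but SAH replicate 4 lay only 0.41 above the highest Sham array, and the SD was 1.08 after SAH and 0.28 in Sham. The log2 change was 2.07 (limma, SE 0.42, adjusted p = 0.0229). In Sham the mean was 3.67. Leaving out SAH replicate 1 or 2 or Sham replicate 2, 3 or 4 ended the call, with log2 changes between 1.96 and 2.13 (adjusted p = 0.0529 to 0.0644 from limma).

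S100a9, the partner chain of S100a8, had log2 intensities of 6.50, 6.28, 7.26 and 5.61 in SAH replicates 1 to 4 and of 5.01, 5.24, 5.40 and 5.18 in Sham replicates 1 to 4. As for S100a8, SAH replicate 3 was the highest and SAH replicate 4 the lowest of its group, and the groups did not overlap. The log2 change was 1.21 (limma, SE 0.27, adjusted p = 0.0355). The call was lost without SAH replicate 1 or 2 or any 1 of the Sham replicates, with log2 changes between 1.14 and 1.27 (adjusted p = 0.0614 to 0.0986 from limma). The deviations of S100a8 and S100a9 from their group means correlated at 0.88 over the 8 arrays, at 0.96 over the SAH arrays and at -0.40 over the Sham arrays (Pearson's r, a description). SAH replicate 3 deviated by 1.32 and 0.85 and SAH replicate 4 by -1.31 and -0.80. On Sham arrays the deviations of both genes were at most 0.35.

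Neutrophil markers are given beside calprotectin because neutrophils are rich in it. Of 18 neutrophil markers other than S100a8 and S100a9, 0 passed in limma (2 with p under 0.05 before adjustment) and 0 in the methods' t-test, and the median log2 change was 0.09. Their summed linear intensity was 269 to 288 after SAH and 246 to 282 in Sham, and for 15 of the 18 both group means lay below the array medians. The defining genes Ly6g (2.59 ± 0.20 after SAH and 2.71 ± 0.42 in Sham, SD, n = 4 each) and Csf3r (3.64 ± 0.17 after SAH and 3.52 ± 0.11 in Sham, SD, n = 4 each) were among these. Of the SAH arrays, replicate 2 had the highest sum of the list (288) and replicate 1 the lowest (269). Single genes of the list differed in their order. Cxcr2 (5.05, 5.36, 5.55 and 4.74 in SAH replicates 1 to 4) and Csf3r (3.59, 3.63, 3.87 and 3.45) were highest in replicate 3 and lowest in replicate 4, as were S100a8 and S100a9. Ly6g (2.54, 2.89, 2.45 and 2.49) was highest in replicate 2 and lowest in replicate 3. Stfa2l1, a stefin gene of the neutrophil list, had log2 intensities of 3.62, 3.14, 3.96 and 2.59 in SAH replicates 1 to 4 and of 2.42 to 2.62 in Sham. Its log2 change of 0.77 missed the threshold (limma, SE 0.24, adjusted p = 0.128), as did that of Mmp8, a neutrophil collagenase (limma, 0.50, SE 0.12, adjusted p = 0.0551), whose groups did not overlap. The part of neutrophils in the rise of S100a8 and S100a9 was not tested.

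Markers of monocytes and microglia are given too, because monocytes also make calprotectin and S100a4. Of 17 such markers 4 rose, 0 fell and 13 were not called, with a median log2 change of 0.49, against 1.90% of all probe sets called higher. By the methods' t-test 0 of the 17 passed. Ctss rose by 1.46 (limma, SE 0.18, adjusted p = 0.00180), Tyrobp by 1.39, Fcer1g by 0.98 and C1qc by 0.67 on the log2 scale. The summed linear intensity of the list was 1092 to 1524 after SAH and 745 to 901 in Sham. SAH replicate 3 was the highest array and SAH replicate 2 the lowest SAH array. Ptprc, the gene of the CD45 used for depletion, had log2 intensities of 3.16, 3.63, 4.23 and 3.48 in SAH replicates 1 to 4 and of 3.21, 2.64, 2.96 and 2.98 in Sham replicates 1 to 4, and its log2 change of 0.68 missed the threshold (limma, SE 0.20, adjusted p = 0.123). Itgam had 4.77 ± 0.38 after SAH and 4.28 ± 0.21 in Sham (SD, n = 4 each). The part of these cells in the S100 changes was not tested.

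S100a6 encodes calcyclin, which binds annexins and the calcyclin-binding protein and is common in fibroblasts, smooth muscle and reactive astrocytes. Its log2 intensities were 8.85, 8.06, 8.43 and 9.08 in SAH replicates 1 to 4 and 7.40, 7.59, 7.32 and 8.06 in Sham replicates 1 to 4. SAH replicate 2 and Sham replicate 4 met at 8.06, and the other 3 SAH arrays lay above all Sham arrays. The log2 change was 1.01 (limma, SE 0.22, adjusted p = 0.0333). Leaving out SAH replicate 1, 3 or 4 or Sham replicate 1, 2 or 3 ended the call, with log2 changes between 0.85 and 1.07 (adjusted p = 0.0654 to 0.0989 from limma).

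Dcn, a defining fibroblast gene, also rose, with 6.23 ± 0.32 after SAH and 4.86 ± 0.16 in Sham (SD, n = 4 each) and a log2 change of 1.37 (limma, SE 0.16, adjusted p = 0.00110). It was the only 1 of 8 fibroblast markers that was called, while Lum had 3.21 ± 0.14 after SAH and 3.00 ± 0.17 in Sham (SD, n = 4 each), below the array medians. The summed linear intensity of the fibroblast list, Dcn included, was 190 to 267 after SAH and 177 to 189 in Sham. The median log2 change of the list was 0.05, and a sum without Dcn was not made. By the methods' t-test 0 of the 8 passed. Of 10 pericyte and smooth muscle markers 1 rose, Kcnj8, by 0.96 on the log2 scale (limma, SE 0.20, adjusted p = 0.0257). By the methods' t-test 0 of the 10 passed. The list summed to 6100 to 7428 after SAH and to 5828 to 6601 in Sham. Of all probe sets, 1.90% were called higher. Whether perivascular cells took part in the rise of S100a6 was not tested.

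S100a11, which binds annexin A1 and takes part in membrane repair, had the narrowest groups of the called genes. Its log2 intensities were 11.11, 11.37, 11.23 and 11.17 in SAH replicates 1 to 4 and 10.76, 10.75, 10.69 and 10.52 in Sham replicates 1 to 4, with a gap of 0.35 between the groups. The log2 change was 0.54 (limma, SE 0.10, adjusted p = 0.0165). Of the 8 single omissions, only that of SAH replicate 3 ended its call (0.54, adjusted p = 0.0506 from limma). A pseudogene of S100a11, S100a11-ps, has a probe set of its own and was looked at after its values were seen. It had 7.59, 7.13, 7.85 and 7.53 in SAH replicates 1 to 4 and 6.62, 6.62, 6.47 and 6.74 in Sham replicates 1 to 4, a log2 change of 0.91 (limma, SE 0.15, adjusted p = 0.00608). A further probe set, annotated to both Hif1a and S100a11-ps, was not called (log2 change 0.23, limma, SE 0.20, adjusted p = 0.700), and its groups overlapped. A pseudogene and its parent gene are alike in sequence, so it is uncertain which of the transcripts each probe set measured. S100a11-ps and Hif1a both lie on chromosome 12, and whether Hif1a transcript added to the S100a11-ps signal was not tested.

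The remaining S100 genes were not called, and their intervals show which sizes of change the 8 arrays leave possible. S100a10, which forms a complex with annexin A2 at the plasma membrane and does not need calcium to do so, had 7.82, 7.07, 7.23 and 8.01 in SAH replicates 1 to 4 and 7.17, 6.88, 7.46 and 7.10 in Sham replicates 1 to 4. SAH replicates 1 and 4 lay above all Sham arrays and the other SAH arrays lay among them, with a log2 change of 0.38 (95% interval -0.08 to 0.83, adjusted p = 0.466 from limma). S100a13, which takes part in the release of FGF1 and IL-1α, had 9.78, 9.66, 9.67 and 9.78 in SAH replicates 1 to 4 and 9.39, 9.49, 9.50 and 9.60 in Sham replicates 1 to 4. Its groups did not overlap, as was true for 8.99% of all probe sets in either direction. The gap was 0.06, and the log2 change of 0.23 (95% interval 0.02 to 0.44) missed the threshold (limma, adjusted p = 0.300).

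S100a1, best known from heart muscle, had 7.41, 6.80, 7.15 and 7.23 in SAH replicates 1 to 4 and 6.96, 7.11, 6.94 and 6.96 in Sham replicates 1 to 4. The lowest array of all 8 was SAH replicate 2, and the log2 change was 0.16 (95% interval -0.13 to 0.44, adjusted p = 0.673 from limma). S100a1 and S100a13 lie on opposite strands, and their promoter windows share 204 bases. S100a16, a widely expressed member, had 5.65, 5.42, 5.56 and 5.66 in SAH replicates 1 to 4 and 5.37, 5.49, 5.43 and 5.47 in Sham replicates 1 to 4, a log2 change of 0.14 (95% interval -0.08 to 0.35, adjusted p = 0.610 from limma).

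S100a4, which binds non-muscle myosin and marks fibroblasts and macrophages, had 6.94, 5.81, 6.67 and 5.94 in SAH replicates 1 to 4 and 6.11, 6.31, 6.00 and 6.49 in Sham replicates 1 to 4. SAH arrays formed the highest and the lowest values of the set, and the log2 change was 0.12 (95% interval -0.39 to 0.63, adjusted p = 0.888 from limma). It turned to -0.08 without SAH replicate 1. S100b had 5.53, 5.13, 4.44 and 5.13 in SAH replicates 1 to 4 and 5.01, 4.56, 4.75 and 5.39 in Sham replicates 1 to 4, a log2 change of 0.13 (95% interval -0.37 to 0.63, adjusted p = 0.874 from limma), which turned to -0.03 without SAH replicate 1. Of 10 astrocyte markers 0 passed in limma (1 with p under 0.05 before adjustment) and 0 in the methods' t-test. Their summed linear intensity was 364 to 474 after SAH and 316 to 405 in Sham. Gfap had 4.96 ± 0.32 after SAH and 4.41 ± 0.12 in Sham, and Aqp4 had 3.89 ± 0.10 after SAH and 3.84 ± 0.09 in Sham (SD, n = 4 each).

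**Figure D3:**
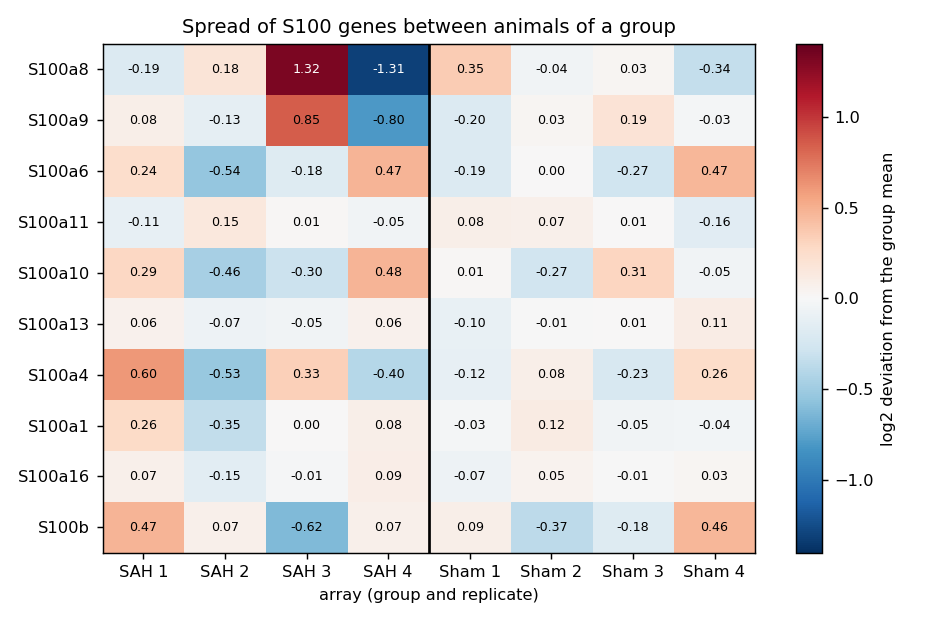
Deviation of each array from the mean of its own group (colour and printed value, log2 units) for the 10 S100 genes (rows) on 4 SAH arrays and 4 Sham arrays (columns). S100a8 and S100a9 were highest in SAH replicate 3 and lowest in SAH replicate 4, while S100a6 and S100a10 were highest in SAH replicate 4 and lowest in SAH replicate 2.

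The animals of the SAH group did not differ in the same way for every S100 gene. S100a6, S100a10, S100a13 and S100a16 were all highest in SAH replicate 4 and all lower than their group mean in SAH replicates 2 and 3. In SAH replicate 4, S100a6 deviated by 0.47 and S100a10 by 0.48, while S100a8 deviated by -1.31. Over the 8 arrays the deviations of S100a6 correlated at 0.84 with those of S100a13 and of S100a16, and at -0.85 with those of S100a11 (Pearson's r, as descriptions over arrays that share 2 group means). S100a11 deviated by at most 0.16 on any array.

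Of 8 further genes named for S100 (S100a3, S100a5, S100a7a, S100a7l2, S100a14, S100g, S100z and the S100 binding protein gene S100pbp), 0 passed in limma (1 with p under 0.05 before adjustment) and 0 in the methods' t-test. For 5 of them both group means lay below the array medians. S100z had 2.35 ± 0.06 after SAH and 2.66 ± 0.10 in Sham (SD, n = 4 each), a log2 change of -0.31 (limma, SE 0.10, adjusted p = 0.128) and no overlap of the groups. S100a5 had a log2 change of -0.24 (limma, SE 0.14, adjusted p = 0.501). Their median log2 change was -0.02, against -0.02 over all probe sets.

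Of 9 genes that encode receptors or co-receptors of released S100 proteins, 3 rose and 1 fell. Of all probe sets, 1.90% were called higher and 1.28% lower. By the methods' t-test 1 of the 9 passed. Tlr4, the receptor of calprotectin, had 5.95, 5.49, 5.67 and 5.28 in SAH replicates 1 to 4 and 4.73, 4.48, 4.60 and 4.77 in Sham replicates 1 to 4, a log2 change of 0.95 (limma, SE 0.14, adjusted p = 0.00489). Every SAH array lay above every Sham array. Cd14, the TLR4 co-receptor, rose by 3.55 (SE 0.29) and Mcam, an endothelial adhesion molecule that binds calprotectin, by 0.77 (SE 0.17) on the log2 scale. Bsg, the gene of basigin, a receptor of S100A9, had 11.49 ± 0.05 after SAH and 11.90 ± 0.09 in Sham (SD, n = 4 each) and fell by 0.41 (limma, SE 0.09, adjusted p = 0.0391). Bsg lost its call in all 8 single omissions (log2 changes from -0.45 to -0.38), and Mcam in all but that without SAH replicate 2 (0.62 to 0.85). Ager, the gene of RAGE, had 5.86 ± 0.08 after SAH and 6.03 ± 0.30 in Sham (SD, n = 4 each) and a log2 change of -0.17 (limma, SE 0.14, adjusted p = 0.672).

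Of 31 measured genes for intracellular partners and cargo of S100 proteins, 4 rose and 0 fell, with a median log2 change of 0.05. Of all probe sets, 1.90% were called higher and 1.28% lower. By the methods' t-test 2 of the 31 passed. Anxa2, the partner of S100a10, had 9.15, 9.18, 9.21 and 9.71 in SAH replicates 1 to 4 and 8.93, 8.58, 8.58 and 8.55 in Sham replicates 1 to 4, a log2 change of 0.65 (limma, SE 0.15, adjusted p = 0.0362). Its call was lost in all single omissions except that of Sham replicate 1, with log2 changes from 0.52 to 0.71. Myh9, the non-muscle myosin bound by S100a4, rose by 0.72 (limma, SE 0.10, adjusted p = 0.00394). Plat, the gene of tissue plasminogen activator, which binds to the complex of S100a10 and annexin A2, rose by 1.70 (SE 0.29) on the log2 scale. Il1a, the cytokine released with S100a13, rose by 2.18 (SE 0.13) on the log2 scale, but its Sham mean of 3.92 was under the median of every array, and with 16 added to each linear intensity the rise was 1.44. Anxa1, the partner of S100a11, had 7.13 ± 0.25 after SAH and 6.71 ± 0.46 in Sham (SD, n = 4 each), a log2 change of 0.43, which missed the threshold (limma, SE 0.21, adjusted p = 0.402). Cacybp, the calcyclin-binding protein gene, had a log2 change of 0.38, which also missed the threshold (limma, SE 0.14, adjusted p = 0.224).

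Of 6 transcription factor genes linked to S100a8 and S100a9 in myeloid cells or inflammation, 3 rose and 0 fell, with a median log2 change of 0.75, against 1.90% of all probe sets called higher. By the methods' t-test 0 of the 6 passed. The C/EBP pattern stands in 40.7% of all promoter windows, and whether Cebpb took part in the S100 changes was not tested. Cebpb had 7.45, 6.89, 7.40 and 7.12 in SAH replicates 1 to 4 and 5.85, 6.16, 6.14 and 6.28 in Sham replicates 1 to 4. The groups did not overlap, and the log2 change was 1.11 (limma, SE 0.15, adjusted p = 0.00212). Hif1a rose by 0.82 (limma, SE 0.19, adjusted p = 0.0459) and Stat3 by 0.68 (limma, SE 0.16, adjusted p = 0.0479). The probe set annotated to both Hif1a and S100a11-ps was not called (log2 change 0.23, limma, adjusted p = 0.700). Hif1a kept its call only without SAH replicate 4 and Stat3 only without SAH replicate 4 or Sham replicate 4 among the single omissions (log2 changes from 0.66 to 0.98 for Hif1a and from 0.58 to 0.80 for Stat3). Cebpd had a log2 change of 0.85 (limma, SE 0.22, adjusted p = 0.0750), and its lowest SAH array (8.43) lay just above its highest Sham array (8.39).

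**Figure D4:**
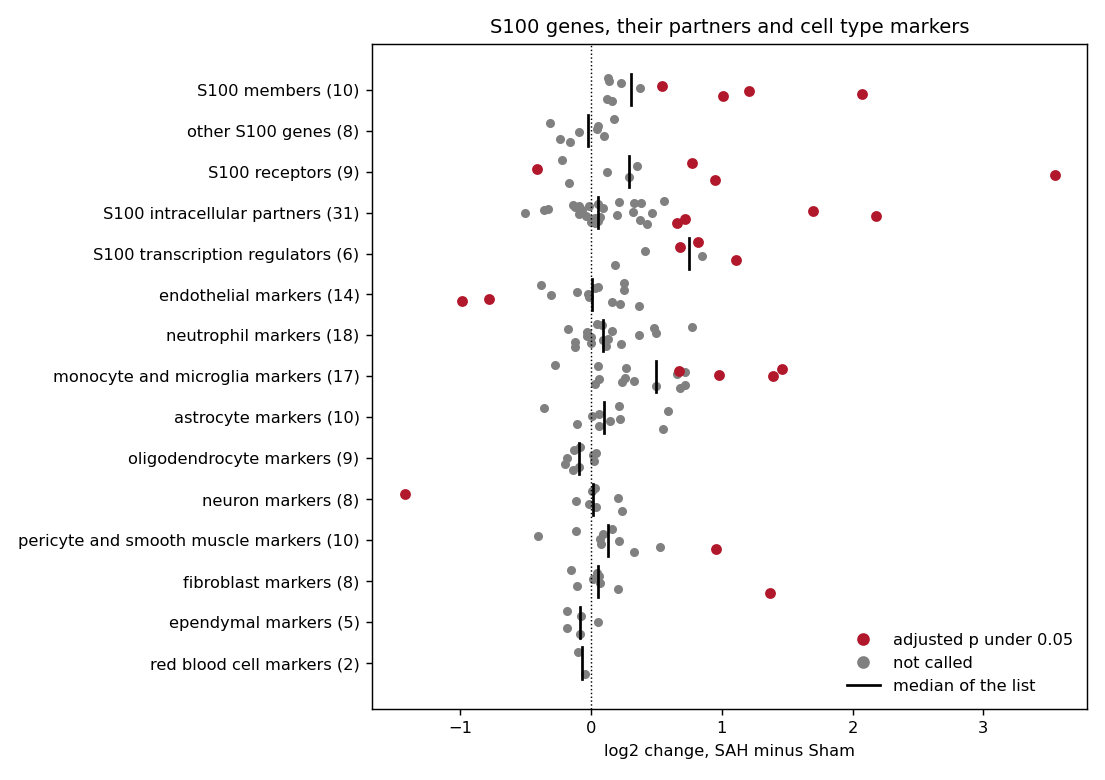
Log2 change after SAH (horizontal axis, SAH minus Sham) of each gene in the lists named at the left, with the number measured in parentheses, red for an adjusted p under 0.05 from limma and a black line at the median of the list. The S100 genes under study had a median of 0.30, the further S100 genes -0.02, neutrophil markers 0.09, and monocyte and microglia markers 0.49.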

How the data were processed

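The deposited values are log2 intensities of 8 Affymetrix Mouse Gene 2.0 ST arrays. The authors amplified the RNA of each animal and normalized the arrays by RMA (background correction, quantile normalization and summary to probe sets). The submitters' processing notes name R 3.2.2 and oligo. Raw intensities were not used here. Groups came from the sample titles. Symbols came from the platform annotation, which names 25341 of 41345 probe sets (1820 with several symbols, which name no gene here).

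SAH and Sham were compared with limma (version 3.58.1, R 4.3.3). P-values were adjusted by Benjamini-Hochberg across the 25341 named probe sets and a probe set with an adjusted p under 0.05 was termed called. Genes outside the 10 were represented by the probe set with 1 symbol and the highest mean. The methods' t-test was run as an alternative, beside trend and robust fitting, array weights, other probe set choices, median centring, cyclic loess, 16 added to linear intensities, replicate blocks and omission of arrays. Precision is limited by how few arrays there are.

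The 10 genes and the lists were chosen with earlier results of these data known. The rule for named genes took all 10 genes, every called gene of the other lists, the 2 genes furthest from 0 in lists without a call, the first 2 genes of each marker list and the 5 genes most like S100a8 and S100a9 in their deviations. In marker lists that touch no S100 result, some of these are covered only by the counts of their list. Further genes were named for their role or after their values were seen. Of the list genes, 10 were not analysed here. Promoters came from RefSeq GRCm38.p6.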

Additional observations from a re-analysis of the deposited data

Results flagged for a closer look

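In 42 groups of 4 arrays (the 10 S100 genes and the 11 called partner genes), 5 held an array that lay far from the other 3, and chance alone flags about 1 in 20 groups. For S100a1, Sham replicate 2 had a log2 intensity of 7.11, and the nearest other Sham array had 6.96. For Mcam, Sham replicate 3 had 6.44, below all other Sham arrays. For Anxa2, SAH replicate 4 had 9.71, above the nearest SAH array at 9.21, and Sham replicate 1 had 8.93, above the nearest Sham array at 8.58. For Il1a, SAH replicate 1 had 6.31, above the nearest SAH array at 6.05.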

How the results depend on the processing

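The 4 calls among the 10 S100 genes, the 11 calls among 54 partner genes and the 807 calls among all probe sets depended on the test and on the number of probe sets tested. The methods' t-test called 0, 3 and 86 (5 of the 10 S100 genes had an unadjusted p under 0.05). With all 41345 probe sets tested, limma called 0, 5 and 353, and S100a11 was nearest the threshold (adjusted p = 0.0524). Among probe sets above log2 6, 2 of the 6 S100 genes left were called, and with 16 added to each intensity 1 was. Without 1 array there were 1 to 3 S100 calls, 6 to 9 partner calls and 471 to 684 calls in all. Without SAH replicate 4 and Sham replicate 4 together, an alternative chosen after seeing the data, 3 S100 genes, 9 partner genes and 506 probe sets were called. The log2 change of S100a4 ranged from -0.083 to 0.30 and that of S100b from -0.030 to 0.33 over the single omissions, both lowest without SAH replicate 1, and no other S100 or called partner gene changed sign. Median centring and cyclic loess kept 4 S100 calls.

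The numbers of the titles were not taken to pair the animals, since no source ties them to a shared day. Deviations of arrays with the same title number correlated between -0.06 and 0.03, and 0 of 4 SAH arrays correlated best with the Sham array of its own number. With the title number as a replicate block, 4 S100 genes, 8 partner genes and 627 probe sets were called. With the number of the descriptions as a block, of which 3 are shared by the groups (correlations -0.06 to 0.02), the counts were 1, 4 and 275. SAH replicate 2 and Sham replicate 3 were alone in their blocks and added nothing to the change estimated in that fit. That fit kept the call of S100a6 and ended those of S100a8 (adjusted p = 0.0679), S100a9 (0.0792) and S100a11 (0.162).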

Other observations

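Among 11776 probe sets with 1 symbol and a mean above the median, those whose deviations from the group means over the 8 arrays were most like those of S100a8 belonged to Snapc1 (Pearson's r 0.99), Tpm1 (0.99), Gbx2 (0.96), Rbm45 (0.96) and Hmgxb3 (0.96). For S100a9 they belonged to Cyp39a1 (0.97), Onecut3 (0.97), Olfr1085 (0.96), Gm7138 (0.96) and Spg20 (0.96). None of these 10 genes was called after SAH. They were the highest of 11776 candidates over only 8 arrays, so correlations of this size can arise without any link between the genes.

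Of the other marker lists, 1 of 8 neuron genes fell (0 in the methods' t-test), against 1.28% of all probe sets called lower. It was Stmn2, with 6.62 ± 0.23 after SAH and 8.05 ± 0.33 in Sham (SD, n = 4 each), while Snap25 averaged 5.05 after SAH and 4.81 in Sham. The neuron list summed to 254 to 290 after SAH and to 351 to 491 in Sham in linear intensity, and the 7 genes other than Stmn2 to 162 to 173 after SAH and to 141 to 178 in Sham. In limma and in the methods' t-test 0 of 9 oligodendrocyte genes, 0 of 5 ependymal genes and 0 of 2 red blood cell genes passed, and 0 had p under 0.05 before adjustment. The log2 changes furthest from 0 in these lists were -0.20 for Mobp, -0.18 for Dynlrb2 and -0.10 for Epb42. Of the astrocyte genes, Fabp7 had the log2 change furthest from 0 (0.59, adjusted p = 0.466 from limma).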
